A study of Mus musculus with 9 samples.

Results

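The genes described are 10 hormones, local signals and receptors of the testis: Amh, Amhr2, Inha, Inhba, Inhbb, Fst, Fshr, Dhh, Kitl and Gdnf. They were taken by gene symbol from the platform's annotation, which gave them 19 of 45101 probe sets, and they are 10 of 18193 named genes on the array. Most are made by Sertoli cells, which surround and feed the germ cells inside the tubule, or read by them. The RNA came from preparations labelled spermatogonia, so transcripts of these genes were measured in a germ cell fraction.

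The preparations were made from testes of adult Balb/C mice on a control diet (3 arrays), on a vitamin A-deficient diet (VAD) for 18 weeks (3 arrays) or on that diet for 25 weeks (3 arrays). Testes of 2 mice were dissociated, plated overnight and separated by sedimentation through albumin, with a purity above 90% according to the submitters. Neither the age of the control mice nor whether each array held its own preparation is given in the labels, so p-values measure only the spread between these samples, which may be technical. Retinoic acid, made from vitamin A, starts the differentiation of spermatogonia, and testes lacking it lose their later germ cells.

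Sertoli cells answer follicle-stimulating hormone through Fshr and signal to their neighbours with several secreted proteins. Inhibin, built from the Inha subunit and a beta subunit (Inhba or Inhbb), lowers the release of follicle-stimulating hormone, while pairs of beta subunits form activins, which follistatin (Fst) binds and blocks. Anti-Müllerian hormone (Amh) acts through Amhr2 and is made strongly by immature Sertoli cells and little by adult ones. Desert hedgehog (Dhh) signals to Leydig and peritubular cells, Kit ligand (Kitl) to differentiating spermatogonia through Kit, and Gdnf to spermatogonial stem cells through Gfra1 and Ret.

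The arrays differed in brightness. Control replicate 3 and VAD 25-week replicate 3, the dim pair below, had trimmed mean signals of 22.9 and 23.2, against 55.2 to 185 on the other 7 arrays, and after normalization they correlated with those at 0.824 to 0.851, against 0.942 to 0.975 among the 7. The values given here are therefore from a limma model with the 3 groups and a block for the dim pair, chosen with earlier results of these data known, and adjusted p-values are Benjamini-Hochberg values over all 27022 probe sets that passed the filter on low signal. With group as its sole term, limma called 0 of those probe sets at either time (1958 at 18 weeks and 3209 at 25 weeks had an unadjusted p under 0.05), so every call below depends on how the dim pair is handled. Levels are normalized log2(signal + 3.259), and a fold change on that scale understates the change of a low signal. The germ cell marker Ddx4 was at deposited signals of 919 or more on every array. Other genes listed as spermatogonial markers, not all of them limited to that stage, ranged widely in the controls. Kit was at 1.56 to 6.79 and Zbtb16 at 5.34 to 7.56, whereas Id4 was at 86.6 to 285 and Tex101 at 42.3 to 316. The cell content of the preparations was not tested. The spermatid gene Prm1 was also present in every group, at 233 or more.

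Of the 10 genes, 8 had a probe set above the filter, through 12 of the 19 probe sets, and Amh and Gdnf had none. Unless another is named, a gene is described by its brightest probe set above the filter, with types prone to cross-hybridisation used last. At 18 weeks limma called 2 of the 8 higher than control, Amhr2 and Dhh, and 0 lower. Among all probe sets tested 1.33% were called higher and 0.133% lower. At 25 weeks limma called 3 of the 8 higher, Inhbb, Fst and Dhh, and 0 lower, where 8.54% of all probe sets were called higher and 6.32% lower. The 8 fitted log2 changes had a median of 1.17 at both times, beside -0.01 for all probe sets at each time. Both comparisons use the same control arrays, and a gene that passed the filter only through its deficient arrays had to differ from control. Amhr2, Dhh and Fst, 3 of the 8, had a control mean below the filter level of 3.39, against 6.24% of all kept probe sets, so these counts describe the list and support nothing further.

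On the 7 arrays without the dim pair limma called Amhr2 and Dhh higher and Kitl lower at 18 weeks, where 3.99% of all probe sets were called (3.18% higher, 0.807% lower). At 25 weeks it called Amhr2 and Dhh higher, against 15.6% of all probe sets (8.9% higher, 6.74% lower). On the deposited scale, without normalization between arrays, it called 2 of the 8 higher at 18 weeks and 6 at 25 weeks. There 0.496% of all probe sets were called at 18 weeks (0.488% higher, 0.0074% lower) and 38.7% at 25 weeks (38.7% higher, 0.0296% lower). Between the times it called 1 of the 8, Kitl, higher on that scale, against 6.6% of all probe sets (6.58% higher, 0.0222% lower). By overlap on 9 arrays, 5 of the 8 lay higher on all 18-week arrays than on all controls (Amhr2, Inha, Fst, Fshr and Dhh) and 0 lower, where 11.8% of all probe sets were higher and 7.6% lower. At 25 weeks 3 lay higher (Inhbb, Fst and Dhh) and 0 lower, where 9.13% were higher and 7.11% lower. In the block model 14.9% of all probe sets were called at 25 weeks in either direction and 1.47% at 18 weeks.

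**Figure D1:**
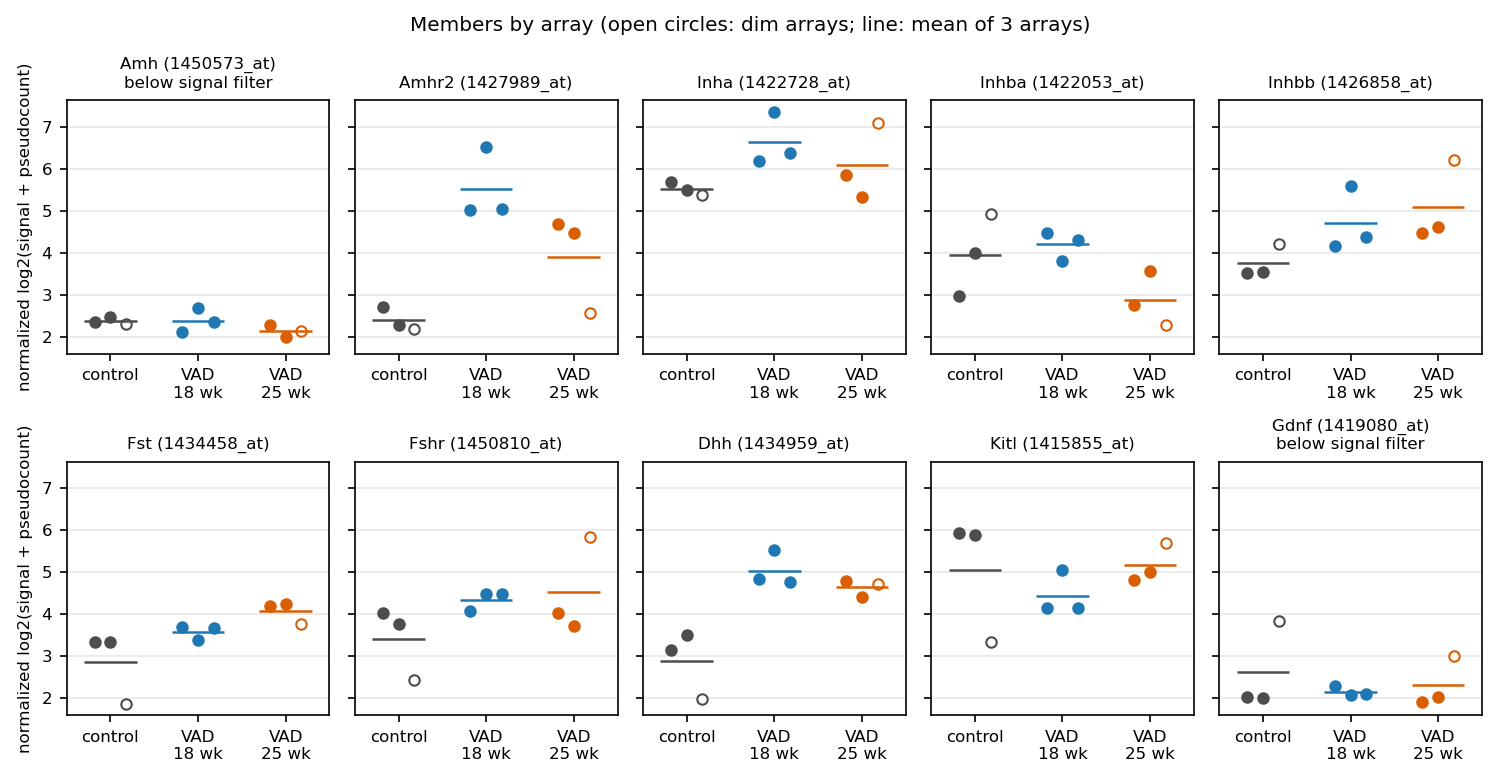
Normalized log2 level (vertical axis, log2 of signal plus pseudocount) of the 10 genes on each of the 9 arrays, by diet group. Points are arrays, open circles are the dim pair and lines are means of 3 arrays; Amhr2 and Dhh have all 3 VAD 18-week arrays above all 3 control arrays, while Amh stays between 2.00 and 2.69 in every group.

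The ligand Amh had signals near the bottom of the array in every group. Its one probe set had normalized levels of 2.36, 2.47 and 2.30 in the controls, 2.13, 2.69 and 2.35 at 18 weeks and 2.28, 2.00 and 2.14 at 25 weeks. In deposited units these signals lay between 0.845 and 3.96, and the mean of this probe set was at the 6.6th percentile of the array. The 18-week arrays overlapped with the controls and the 25-week arrays lay just below them. As the probe set did not pass the filter, no test was made.

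Amhr2, the receptor that binds anti-Müllerian hormone, had the largest fitted change of the 8 tested genes at 18 weeks. Probe set 1427989_at had levels of 2.71, 2.29 and 2.19 in the controls, 5.03, 6.52 and 5.04 at 18 weeks, and 4.69, 4.48 and 2.57 at 25 weeks. All 18-week arrays stood above all controls, and at 25 weeks the 2 arrays outside the dim pair did so, while the dim one lay among the controls. At 18 weeks the fitted log2 rise was 2.75 ± 0.50 (± SE here and below, 3 arrays a group), or 6.71-fold at this pseudocount (2.99-fold with a pseudocount of 16 and 10.4-fold with 1), with limma's adjusted p = 0.0275 (0.273 with group alone, 0.00538 on the 7 other arrays). At 25 weeks this probe set was at 1.52 ± 0.48 with limma's adjusted p = 0.0532. On the 7 arrays outside the dim pair it rose by 2.08 ± 0.46 (limma adjusted p = 0.013). Its controls were at deposited signals of 0.975 to 2.00, so the size of the fold rests on the pseudocount. Their mean level of 2.40 was below the filter level of 3.39, so this probe set passed the filter through the deficient arrays and had to be higher there. Without the filter limma's adjusted p = 0.0395 at 18 weeks.

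The remaining Amhr2 probe sets, both of a type that can bind related transcripts, were called at both times. Probe set 1438967_x_at had deposited signals of 32.6, 23.4 and 31.0 in the controls, 195, 425 and 242 at 18 weeks and 366, 256 and 310 at 25 weeks. It rose by 2.92 ± 0.46 at 18 weeks and 2.25 ± 0.43 at 25 weeks (limma adjusted p = 0.0138 and 0.00707). Probe set 1457021_x_at rose by 3.43 ± 0.70 and 3.18 ± 0.66 (limma adjusted p = 0.0385 and 0.00972). The 3 probe sets thus ran together on the 7 arrays outside the dim pair and apart within it, where the 25-week array exceeded the control array by 0.38, 3.52 and 5.82 on the log2 scale. The 18-week call of 1427989_at was lost without control replicate 1 or 2, VAD 18-week replicate 2 or 3 or VAD 25-week replicate 2 (limma adjusted p = 0.0559 to 0.119).

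**Figure D2:**
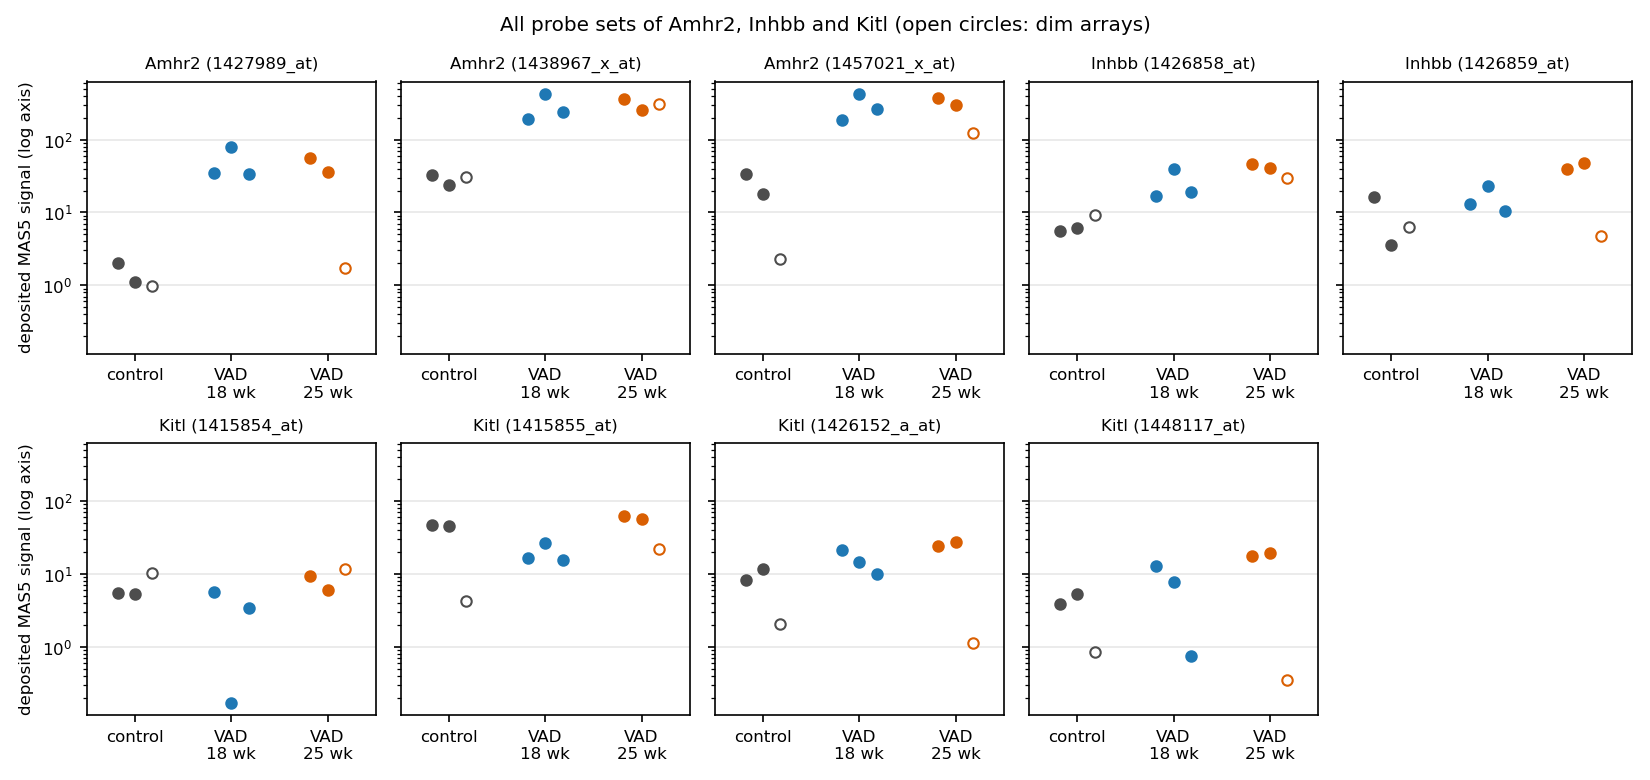
Deposited MAS5 signal (log axis) of every probe set of Amhr2, Inhbb and Kitl on the 9 arrays by diet group, with open circles for the dim pair. The 3 Amhr2 probe sets are higher in all 18-week arrays than in all controls, whereas the 4 Kitl probe sets differ from each other in direction.

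Amhr2 and Dhh were the members called at 18 weeks, so the 250 bases before each start site are shown for comparison (RefSeq, GRCm38.p6). Of the 10 genes 8, all but Amh and Fst, matched the promoter table. Amhr2 and Dhh lie on mouse chromosome 15, as does Gdnf, which was below the filter. The windows are chr15:102445117-102445366 on the plus strand for Amhr2 and chr15:98898541-98898790 on the minus strand for Dhh, written 5′ to 3′ with matches to the searched motifs in capitals.
Amhr2: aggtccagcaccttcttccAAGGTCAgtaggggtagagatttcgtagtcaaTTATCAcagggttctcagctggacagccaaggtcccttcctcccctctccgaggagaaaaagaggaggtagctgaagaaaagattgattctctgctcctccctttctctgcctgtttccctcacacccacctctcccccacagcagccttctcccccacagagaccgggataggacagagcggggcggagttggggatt
Dhh: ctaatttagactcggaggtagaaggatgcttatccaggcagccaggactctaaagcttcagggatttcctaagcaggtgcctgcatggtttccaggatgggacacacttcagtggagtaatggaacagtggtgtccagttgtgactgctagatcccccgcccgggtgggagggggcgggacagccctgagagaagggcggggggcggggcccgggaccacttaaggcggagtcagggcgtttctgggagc

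The search covered both strands for AAGGTCA, the core bound by the gonadal nuclear receptor NR5A1, which contains the nuclear receptor half-site AGGTCA, for AGGTCA itself and AGTTCA, for AGATAA and TGATAA of GATA factors, for AACAAT of SOX factors, and for the cyclic AMP response element TGACGTCA and its part TGACG. The Amhr2 window held 1 AAGGTCA, starting 231 bases before the start site, and 1 TGATAA on the opposite strand at 199 bases. Among all 32851 promoters of the table, 4.08% held AAGGTCA and 7.94% held TGATAA. The Dhh window held none of these letters. The windows of Inhba, Inhbb, Fshr and Kitl also held none. The Inha window held 1 AGGTCA at 69 bases, a motif found in 14.0% of promoters. Gdnf has 2 start sites in the table: the window of one held 1 AGGTCA at 87 bases and 1 TGACG at 50 bases, and that of the other 1 AGATAA at 84 bases, where 17.8% of promoters held TGACG and 9.99% AGATAA. A match describes the letters and was not tested for binding.

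Inha, the alpha subunit without which no inhibin forms, was higher on all 18-week arrays than on all controls, without passing the test. Its levels were 5.69, 5.50 and 5.39 in the controls, 6.19, 7.36 and 6.37 at 18 weeks and 5.84, 5.33 and 7.08 at 25 weeks. At 25 weeks replicate 2 lay below the controls, replicate 1 just above them and the dim array well above. The fitted difference was 1.32 ± 0.40 at 18 weeks (limma adjusted p = 0.126) and 0.56 ± 0.37 at 25 weeks (limma adjusted p = 0.347), neither of which passed. Without the dim pair the 25-week difference was -0.01 ± 0.34.

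Inhbb, the beta subunit of inhibin B and activin B, rose at 25 weeks in the model with the block. Probe set 1426858_at had levels of 3.53, 3.55 and 4.22 in the controls, 4.16, 5.59 and 4.37 at 18 weeks and 4.47, 4.62 and 6.21 at 25 weeks. All 25-week arrays exceeded all controls, and at 18 weeks replicate 1 lay just below control replicate 3. The fitted rise at 25 weeks was 1.33 ± 0.38 (limma adjusted p = 0.0374; on the 7 other arrays the difference was 1.0 ± 0.43 with 0.14). At 18 weeks the fitted difference was also 1.33, with SE 0.41, and limma's adjusted p = 0.132 did not pass. The second Inhbb probe set, 1426859_at, differed by 0.13 ± 0.51 at 18 weeks and 0.31 ± 0.48 at 25 weeks, without passing. The 25-week call was lost on leaving out any 1 control or VAD 25-week array (limma adjusted p = 0.0673 to 0.143).

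Inhba, the beta subunit of activin A and inhibin A, had low and scattered values. Probe set 1422053_at had levels of 2.97, 3.99 and 4.92 in the controls, 4.48, 3.81 and 4.31 at 18 weeks and 2.75, 3.57 and 2.29 at 25 weeks. The controls alone covered most of that range and overlapped with both deficient groups. The fitted differences were 0.33 ± 0.54 and -1.09 ± 0.51 (limma adjusted p = 0.804 and 0.173). The other Inhba probe set fell below the filter.

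Fst, which encodes the activin-binding protein follistatin, rose at 25 weeks in the model with the block, from a low base. Its probe set 1434458_at had levels of 3.35, 3.34 and 1.88 in the controls, 3.71, 3.39 and 3.68 at 18 weeks and 4.21, 4.26 and 3.77 at 25 weeks. The 3 groups did not overlap, although the gap between the highest control and the lowest 18-week array was narrow. The fitted difference was 0.41 ± 0.38 at 18 weeks (limma adjusted p = 0.623) and a rise of 1.22 ± 0.35 at 25 weeks (limma adjusted p = 0.0392). Without the dim pair the 25-week difference was 0.89 ± 0.37 and limma's adjusted p = 0.126. With a control mean of 2.86, Fst passed the filter through its deficient arrays and had to be higher there, and without the filter it was not called (limma adjusted p = 0.0682). The call was also lost on leaving out any 1 of the 9 arrays, controls and 18-week arrays included, with limma's adjusted p between 0.0527 and 0.171. A second Fst probe set, 1421365_at, was below the filter. Its mean levels were 2.33 in the controls, 3.02 at 18 weeks and 2.83 at 25 weeks, and both deficient groups overlapped with the controls.

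Around these ligands, 22 of 25 genes of activin, inhibin and anti-Müllerian hormone receptors, Smads and binding proteins passed the filter. For this and every list below, the shares of all probe sets called at 18 weeks were 1.33% higher and 0.133% lower. At 25 weeks they were 8.54% and 6.32%. At 18 weeks 4460 of all 27022 had an unadjusted p under 0.05. The counts of the lists are a description only. At 18 weeks limma called 0 of the 22 (2 at an unadjusted p under 0.05), with a median of -0.20. At 25 weeks 3 rose and 0 fell, with a median of -0.04. They were the type I receptors Tgfbr1 (0.69 ± 0.17) and Bmpr1a (0.96 ± 0.26) and the type II receptor Bmpr2 (1.0 ± 0.28), with limma's adjusted p between 0.0225 and 0.035. Without the dim pair Bmpr2 did not pass (limma adjusted p = 0.125). Bmpr1a can pair with Amhr2. Another type I receptor of the list, Acvr1, was at 0.11 ± 0.30 at 18 weeks and -0.34 ± 0.28 at 25 weeks without passing (limma adjusted p = 0.892 and 0.455). Acvr2a, a type II receptor for activin, was at -0.63 ± 0.21 at 25 weeks without passing (limma adjusted p = 0.0702).

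Fshr, the receptor for follicle-stimulating hormone and a gene restricted to Sertoli cells in the testis, did not pass at either time. Its levels were 4.03, 3.76 and 2.43 in the controls, 4.07, 4.49 and 4.47 at 18 weeks and 4.04, 3.72 and 5.85 at 25 weeks. The dim pair held both the lowest value, in the control, and the highest, at 25 weeks. The fitted differences were 1.02 ± 0.59 at 18 weeks and 1.13 ± 0.56 at 25 weeks (limma adjusted p = 0.419 and 0.197). On the 7 other arrays they were 0.45 ± 0.30 and -0.01 ± 0.33. Of 19 genes of cyclic AMP signalling, the path that the receptor uses, limma called 0 at 18 weeks (3 at an unadjusted p under 0.05), with a median of -0.25, and 1 higher and 5 lower at 25 weeks, with a median of -0.35. Crem (-1.09 ± 0.14), a cyclic AMP regulated factor that is abundant in spermatids, and the adenylyl cyclase gene Adcy6 (-1.26 ± 0.20) fell with the smallest adjusted p-values of the list (limma, 0.000977 and 0.00275). On the deposited scale, where the median of all kept probe sets was 0.92, they were at -0.10 and -0.20. The kinase genes Prkaca and Prkar1a fell by 0.77 ± 0.18 and 0.42 ± 0.11. On the deposited scale they lay 0.31 and 0.42 above control, which was below that median. Neither passed without the dim pair (limma adjusted p = 0.0508 and 0.0766). The cyclase gene Adcy3 fell by 1.2 ± 0.34 and the transcription factor gene Creb1 rose by 0.76 ± 0.22 (limma adjusted p = 0.0365 and 0.04), and neither passed without the dim pair. Germ cell markers moved at the same time. Of 12 spermatocyte and spermatid markers, which include Crem, limma called 2 higher and 0 lower at 18 weeks and 2 higher and 4 lower at 25 weeks, with a median of -0.27 at both times. The meiotic genes Piwil1 and Sycp3 rose at both times. Crem, Ccna1 (-0.90 ± 0.14), Acr (-0.83 ± 0.14) and Tnp2 (-1.03 ± 0.27) fell. On the deposited scale the last 3 lay 0.08, 0.14 and 0.08 above control, again below the median of 0.92. The summed deposited signal of the 12 markers was 2211 to 16830 in the controls, 12640 to 18070 at 18 weeks and 1899 to 36390 at 25 weeks, with none at 0. Of 13 genes listed as spermatogonial markers, not all of them limited to that stage, 2 rose and 0 fell at 18 weeks (Id4 and Tex101). At 25 weeks 4 rose (Id4, Tex101, Kit and Dnmt3b) and 1 fell (Dmrtb1, -1.19 ± 0.11). The medians were 0.30 and 0.45. The part of germ cell content in the cyclic AMP genes was not tested.

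Dhh, the hedgehog ligand of Sertoli cells, was the member called at both times through its representative probe set. Probe set 1434959_at had levels of 3.16, 3.51 and 1.99 in the controls, 4.83, 5.54 and 4.76 at 18 weeks and 4.80, 4.43 and 4.71 at 25 weeks. Every deficient array stood above every control. The fitted rise was 1.95 ± 0.39 at 18 weeks, or 3.86-fold, and 1.76 ± 0.37 at 25 weeks, or 3.39-fold (limma adjusted p = 0.0382 and 0.0104, and 0.273 and 0.175 with group alone). These folds rest on the pseudocount: with 16 they were 2.16-fold and 1.85-fold, and with 1 they were 5.17-fold and 4.86-fold. The control mean of 2.89 was below the filter level, so Dhh passed the filter through its deficient arrays and had to be higher there. Without the filter it was called at 25 weeks (limma adjusted p = 0.0182) and not at 18 weeks (0.0618). Without the dim pair the rise was 1.71 ± 0.31 and 1.28 ± 0.34 (limma adjusted p = 0.0162 and 0.0283). The 25-week call held on leaving out each of the 9 arrays in turn (limma adjusted p at most 0.0397), whereas the 18-week call held only without control replicate 3 or VAD 25-week replicate 3, and without any other array limma's adjusted p was between 0.073 and 0.133. A second Dhh probe set, 1422127_at, was below the filter, with deposited signals of 0.718 to 3.24 on 8 arrays and 7.58 in control replicate 3.

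Of 13 hedgehog pathway genes above the filter, limma called 0 at 18 weeks (2 at an unadjusted p under 0.05), with a median of 0.33. At 25 weeks 1 rose and 1 fell, with a median of 0.27, where 8.54% of all probe sets were called higher and 6.32% lower. Ptch1, the hedgehog receptor and itself a target of the pathway, had levels of 2.67, 2.90 and 3.19 in the controls, 3.97, 4.41 and 4.03 at 18 weeks and 4.78, 5.43 and 4.64 at 25 weeks. The 3 groups did not overlap. Ptch1 rose by 2.03 ± 0.33 at 25 weeks (limma adjusted p = 0.00339, or 0.00264 on 7 arrays) and was at 1.21 ± 0.35 at 18 weeks (limma adjusted p = 0.118, or 0.0451 on 7 arrays). The control mean of 2.92 was below the filter level, so Ptch1 passed the filter through its deficient arrays and had to be higher there. The control mean was below that level for 6 of the 13 genes of this list, Gli1 and Gli3 among them. Without the filter limma's adjusted p for Ptch1 was 0.00614 at 25 weeks. Sufu, an inhibitor of the pathway, fell by 0.71 ± 0.17 at 25 weeks. On the deposited scale, where the median of all kept probe sets was 0.92, it lay 0.33 above control. The transcription factor gene Gli1, another target, was at 0.90 ± 0.65 and 0.33 ± 0.62 without passing in the block model (limma adjusted p = 0.529 and 0.756). On the 7 arrays outside the dim pair Gli1 passed at 25 weeks (limma adjusted p = 0.0444) and not at 18 weeks (0.0712). Gli3 was at 1.12 ± 0.43 at 25 weeks in the block model (limma adjusted p = 0.105, or 0.0446 on 7 arrays). On those 7 arrays limma called 3 of the 13 genes higher and 1 lower at 25 weeks. There 8.9% of all probe sets were called higher and 6.74% lower. Which cells held Ptch1 was not tested.

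**Figure D3:**
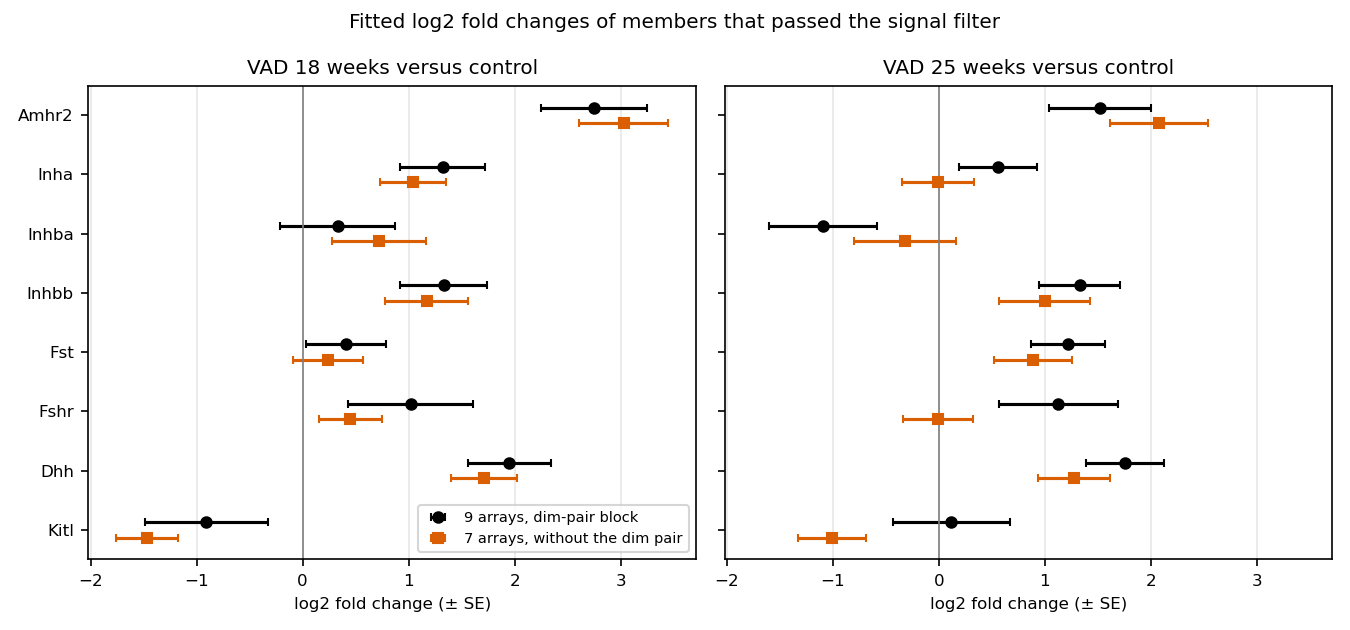
Fitted log2 fold change against control (horizontal axis, ± SE) of the 8 genes above the signal filter, at 18 weeks and at 25 weeks. Black circles are the 9-array model with the dim-pair block and orange squares the 7 arrays without that pair; Amhr2 and Dhh lie above 1 in all 4 fits, and Kitl at 25 weeks changes sign between the models.

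Kitl, the ligand that Kit-bearing spermatogonia need, gave different answers by probe set and by array. Probe set 1415855_at had levels of 5.93, 5.90 and 3.35 in the controls, 4.15, 5.05 and 4.15 at 18 weeks and 4.82, 5.0 and 5.71 at 25 weeks. The 2 controls outside the dim pair were above all deficient arrays, and the dim control was below all of them. The fitted differences of -0.91 ± 0.58 and 0.12 ± 0.55 did not pass (limma adjusted p = 0.468 and 0.909). On the 7 arrays outside that pair Kitl fell by 1.47 ± 0.29 at 18 weeks (limma adjusted p = 0.0216) and was at -1.01 ± 0.32 at 25 weeks (limma adjusted p = 0.0535). For probe set 1426152_a_at the differences on the same 7 arrays were 0.06 ± 0.34 and -0.13 ± 0.37; both were within their SE of 0. The remaining probe sets, 1415854_at and 1448117_at, were below the filter and were not tested. Mean levels of 1415854_at were 3.77 in the controls, 2.54 at 18 weeks and 3.35 at 25 weeks. All its 18-week arrays lay below all controls, as for 1415855_at outside the dim pair, and its 25-week arrays overlapped with the controls. Among all tested probe sets 7.6% lay lower in this way at 18 weeks. Those of 1448117_at were 2.90, 3.19 and 3.04, and both deficient groups overlapped with the controls.

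The receptor Kit had levels of 2.86, 3.65 and 2.51 in the controls, 4.35, 4.51 and 4.09 at 18 weeks and 4.57, 4.54 and 3.94 at 25 weeks, with every deficient array above every control. It rose by 1.34 ± 0.32 at 25 weeks (limma adjusted p = 0.0188) and was at 1.08 ± 0.34 at 18 weeks (limma adjusted p = 0.148). The control mean of Kit, 3.01, was also below the filter level, and without the filter limma's adjusted p = 0.0401 at 25 weeks. Of 14 genes of Kit and its signalling, limma called 0 at 18 weeks (3 at an unadjusted p under 0.05), with a median of 0.08. At 25 weeks 3 rose and 0 fell, with a median of 0.31: Kit, the ubiquitin ligase Cbl (0.64 ± 0.16), which ends Kit signalling, and the kinase subunit Pik3ca (0.73 ± 0.20). Pik3ca did not pass without the dim pair (limma adjusted p = 0.0853).

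Gdnf, the Sertoli cell signal that maintains spermatogonial stem cells, was below the filter. Its levels were 2.03, 2.01 and 3.85 in the controls, 2.30, 2.07 and 2.10 at 18 weeks and 1.91, 2.04 and 3.01 at 25 weeks. The 2 highest values were those of the dim pair, and the deposited signals of the 7 other arrays were 1.79 at most. Of 11 genes of its receptors and responsive genes, 1 rose and 0 fell at 18 weeks, and 1 rose and 1 fell at 25 weeks. The medians were -0.40 and -0.11. Among all probe sets 1.33% were called higher and 0.133% lower at 18 weeks, and 8.54% and 6.32% at 25 weeks. Id4, a regulator of undifferentiated spermatogonia, rose by 0.92 ± 0.14 and 1.15 ± 0.13 (limma adjusted p = 0.0123 and 0.000628). Nrtn, a relative of Gdnf, fell by 0.94 ± 0.28 at 25 weeks (limma adjusted p = 0.0421). On the deposited scale, where the median of all kept probe sets was 0.92, it lay 0.03 above control. Gfra1, the receptor that binds Gdnf, was at -0.58 ± 0.36 and -0.65 ± 0.33 without passing, and the 2 probe sets of its partner Ret were below the filter.

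The direct comparison of 25 with 18 weeks asks whether the longer deficiency differed from the shorter one. Limma called 0 of the 8 genes (2 at an unadjusted p under 0.05) and 0% of all probe sets (3119 at an unadjusted p under 0.05). The fitted differences ran from -1.43 ± 0.54 for Inhba to 1.02 ± 0.58 for Kitl. Amhr2 was at -1.23 ± 0.50 and Dhh at -0.19 ± 0.39 (limma adjusted p = 0.371 and 0.898). On 9 arrays 1 gene (Fst) lay higher in all 25-week than in all 18-week arrays and 2 (Amhr2, Inhba) lower, where 7.36% and 9.76% of all probe sets did. Without the dim pair limma called 0 of the 8, and 1.68% of all probe sets (0.629% higher, 1.05% lower).

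Sertoli cell markers moved with the group as well. Of 17 tested markers, which include none of the 10 genes, 5 rose and 0 fell at 18 weeks and 11 rose and 0 fell at 25 weeks, with medians of 1.15 and 1.27. Their summed deposited signal was 260 to 452 in the controls, 1409 to 2476 at 18 weeks and 755 to 4501 at 25 weeks. No marker was listed at 0, and the lowest control values were 0.362 for the tight junction gene Cldn11 and 0.373 for the gap junction gene Gja1. Both had a control mean below the filter level, so they passed the filter through the deficient arrays and had to be higher there. Without the filter limma's adjusted p was 0.0221 and 0.0052 at 18 weeks and 0.00267 and 0.000506 at 25 weeks. Gata4 was at -0.38 ± 0.36 and -0.98 ± 0.34 without passing. The mean log2 level of the 17 markers was 4.27 to 4.56 in the controls, 5.37 to 6.44 at 18 weeks and 5.66 to 6.29 at 25 weeks. The highest 18-week array by that mean was replicate 2, which also had the highest Amhr2, Inha, Inhbb, Fshr, Dhh and Kitl of its group and the lowest Inhba and Fst. In bulk samples fewer cells of a type and less RNA per cell cannot be told apart, and the part of Sertoli cell content in the values of the 10 genes was not tested.

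Markers of Leydig cells had medians of 0.87 and 1.29 over 7 genes, with 0 called at 18 weeks and 2 higher at 25 weeks. These 2, Cyp17a1 and Fads1, did not pass at 25 weeks without the dim pair (limma adjusted p = 0.0658 and 0.0898). There Hsd3b1 was called higher at both times (limma adjusted p = 0.0167 and 0.00931), with medians of the list of 0.74 and 0.88. Of 7 macrophage and leukocyte markers 0 were called at 18 weeks and 5 rose at 25 weeks (medians 0.12 and 1.06). The control mean was below the filter level for 2 of the 7, C1qb and Lyz1, which had to be higher in the deficient arrays. Of 5 peritubular myoid markers 0 were called at either time, with medians of -0.12 and 0.89, but on the 7 arrays outside the dim pair Acta2 and Myl9 were called higher at 25 weeks (limma adjusted p = 0.03 and 0.0369; median of the list 1.07). Of 4 endothelial markers 0 were called at either time, with medians of -0.15 and -0.43. The part of these cells in the values of the 10 genes was not tested either.

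Set against the mean of the 17 Sertoli markers on the same array, the genes differed in direction. Probe sets have no common scale, so where a gene lies against that mean carries no meaning, and the difference is read between groups alone. Amhr2 was at -1.82, -1.98 and -2.37 in the controls, -0.35, 0.08 and -0.62 at 18 weeks and -0.98, -1.18 and -3.72 at 25 weeks. All 18-week arrays stood above all controls, and the dim array was the lowest at 25 weeks. The fitted changes of the 17 markers at 18 weeks ran from -0.38 for Gata4 to 3.52 for Gja1, with Cldn11 at 2.80 and Ctsl at 2.77. Amhr2, at 2.75, lay within that range. Its probe set passed the filter through the deficient arrays and had to be higher there. Kitl was at 1.40, 1.63 and -1.22 in the controls, -1.23, -1.39 and -1.51 at 18 weeks and -0.85, -0.66 and -0.58 at 25 weeks. The 2 controls outside the dim pair had higher values than all deficient arrays. Inha had group means of 1.07 (SD 0.22, n = 3), 0.81 (SD 0.11) and 0.22 (SD 0.56), and all 25-week arrays lay below all controls. Inhba had means of -0.49 (SD 0.97), -1.62 (SD 0.90) and -3.0 (SD 0.96), again with no overlap between 25 weeks and control. Dhh had means of -1.57 (SD 0.92), -0.78 (SD 0.21) and -1.22 (SD 0.36), and its groups overlapped. Inhbb had means of -0.69 (SD 0.33), -1.12 (SD 0.24) and -0.77 (SD 0.61). Fst and Fshr changed by -0.64 and -0.43 at 18 weeks and by -0.19 and -0.29 at 25 weeks, less than the SD of their controls (0.95 and 0.94). The mean of the 17 markers was itself 4.27 to 4.56 in the controls and 5.66 to 6.29 at 25 weeks. A gene with an unchanged level therefore falls against it. The levels of Inha and Inhba themselves overlapped between 25 weeks and control. The share of all probe sets that separate the groups on this scale was not computed. These differences within an array carry no test.

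**Figure D4:**
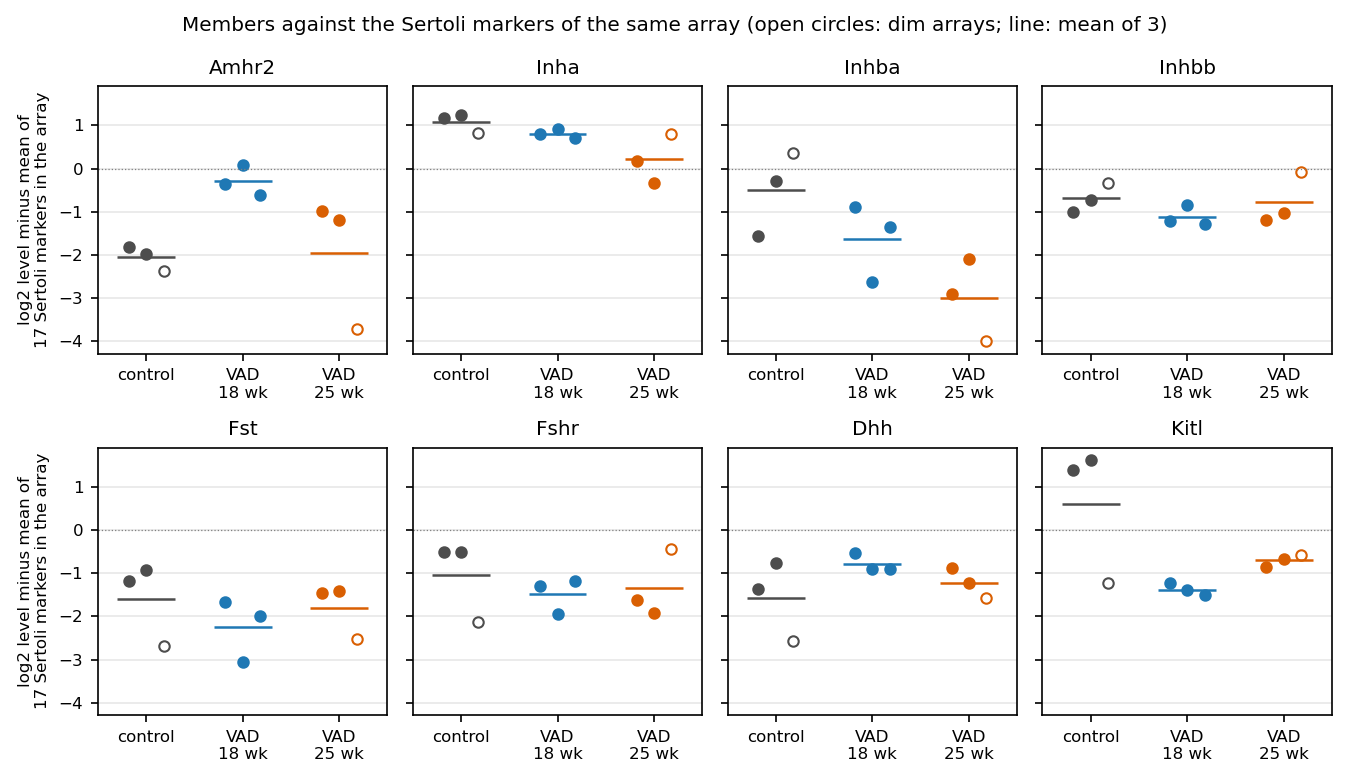
Log2 level of each of the 8 genes minus the mean of 17 Sertoli cell markers on the same array (vertical axis, log2 units), by diet group, with open circles for the dim pair and lines for means of 3 arrays. Amhr2 has a mean of -2.06 in the controls and -0.29 at 18 weeks, while Kitl has values of 1.40 and 1.63 in the controls outside the dim pair and -0.58 or lower on the deficient arrays; differences are read between groups, not against 0.

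The named genes whose levels ran most like those of a member over the 7 arrays outside the dim pair were, for Amhr2, the integrin subunit gene Itgb5 (Pearson r = 0.994), Fyn (0.989) and Reep1 (0.985). For Dhh they were Mark4 (0.993), Abat (0.989) and Cers6 (0.983), and for Inhbb Sh3bp5 (0.997), Dcaf12l1 (0.989) and Tacc2 (0.982). For Inha the closest gene was Syt7 (0.978), for Inhba Aplp2 (0.98), for Fst Lrriq3 (0.994), for Fshr Ubac2 (0.974) and for Kitl Gm732 (0.984). With 7 arrays in 3 groups and 27022 probe sets to choose from, values this high arise easily and are given as a description only.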

How the data were processed

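Per the submitters' processing notes the deposited values are MAS5 output, a linear signal intensity for each probe set; MAS5's version and scaling target are not stated in the labels. The platform annotation named 1 gene for 34958 of 45101 probe sets, several for 932 and none for 9211. The 64 control probe sets were left out. Signals were transformed as log2(signal + 3.259), the pseudocount being the 25th percentile of all signals, and quantile normalized. A probe set was tested if its mean log2 level over all 9 arrays reached the 40th percentile, 3.39 (27022 did). The deposited scale would shift the median change of all kept probe sets by 0.12 at 18 weeks and 0.92 at 25 weeks, so changes are relative to the normalized arrays.

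Limma 3.58.1 in R 4.3.3 (lmFit, eBayes with a trend) was fitted over all 9 arrays with group and a block for dim arrays (trimmed mean, without 2% at either end, below 0.5 of the median array's), at an adjusted p under 0.05. The block offset is shared by the control and 25-week arrays, so 18-week values also rest on 25-week arrays. Tested on simulated data over 27022 probe sets, the block model recovered 66 of 100 changes of log2 size 2 at 18 weeks and 75 of 100 at 25 weeks. Of size 1 it recovered 31 and 29 of 100. With group alone limma recovered 14 and 10 of 100 changes of size 2 and 0 of size 1. The simulated dim pair shared exactly the offset that the block model assumes, so these figures do not test that assumption.

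The members, lists, model and named genes were chosen with earlier results of these data known. The rule for naming took all 10 members, up to 4 genes per pathway list and the 3 most correlated genes per member, of which the first is printed for some. Gli1, Acvr1, Gfra1 at 18 weeks, Ret, Adcy3, Creb1 and the germ cell, Leydig and myoid markers were added after their values were seen. The number of arrays limits the precision.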

Additional observations from a re-analysis of the deposited data

How the results depend on the processing

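Counts of called members depended on the model, and the share of all probe sets called is given beside each. At 18 weeks the count of 2 (1.47%) became 0 with group alone (0%), 0 with no trend in the variance (0%), 1 with a pseudocount of 1 (1.32%) and 1 with no filter (0.606%). It ran from 0 to 3 on leaving out 1 array (0.137% to 3.82%). At 25 weeks the count of 3 (14.9%) became 0 with group alone (0%), 6 on the deposited scale (38.7%) and 1 with no filter (7.25%), and ran from 1 to 3 on leaving out 1 array (6.62% to 15.4%). Between the 2 times the count of 0 (0%) became 1 on the deposited scale (Kitl higher, 6.6%) and 1 with array weights (Inha lower, 5.74%), and stayed at 0 on leaving out each array (0% to 1.46%).

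Adding a replicate block (the labels' numbers), the count was 0 at 18 weeks (0.0703% of all probe sets), 1 at 25 weeks (Dhh, 9.62%) and 0 between the times (0%). Same-numbered arrays did not deviate together in every pair, so the numbers were not taken to pair the samples.

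Directions turned for some values, among them the fitted 1.13 ± 0.56 of Fshr at 25 weeks. At 25 weeks Inha (-0.01) and Fshr (-0.01) turned without the dim pair, and over arrays left out they ran from -0.01 to 0.87 and from -0.01 to 1.55. Kitl at 25 weeks was at -1.01 without the dim pair, -0.02 with median centring, -0.01 with a pseudocount of 16 and -0.74 with array weights, and ran from -1.01 to 0.49. Inhba at 18 weeks ran from -0.31 to 0.72. Between the times Fshr was at -0.46 without the dim pair, -0.08 with median centring and -0.40 with array weights (-0.46 to 0.63 over arrays left out). Dhh ran from -0.43 to 0.12 over arrays left out and was at 0.43 on the deposited scale, where the median of all kept probe sets was 0.82. The cause was not tested.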
